A study of Mus musculus with 8 samples.

Results

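The genes Cdkn2a, Cdkn2b, Cdkn1a, Trp53, Lmnb1, Hmga1 and Hmga2 were examined as the loci of cellular senescence and of its heterochromatin foci. They were located by 6 fixed windows of the mouse build mm9, of which 1 holds both Cdkn2a and Cdkn2b, and every peak whose midpoint lay in a window was counted. The windows could not be checked against gene positions, since no annotation of this build was used, so a window named for a gene means the window stated for it. The windows were chromosome 4 from 88910 to 88965 kb for Cdkn2a and Cdkn2b, chromosome 17 from 29220 to 29245 kb for Cdkn1a, chromosome 11 from 69385 to 69412 kb for Trp53, chromosome 18 from 56855 to 56920 kb for Lmnb1, chromosome 17 from 27685 to 27710 kb for Hmga1, and chromosome 10 from 119790 to 119920 kb for Hmga2. Together they span 327 kb and held 59 of the 88367 peaks in the 6 lists.

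The lists came from chromatin immunoprecipitation sequencing (ChIP-seq) of KDM4B, of H3K9me3 and of total histone H3 in primary bone marrow-derived mesenchymal stem cells after 4 hours of osteogenic induction. The knockout cells (KO) came from Prx1Cre; Kdm4bf/f mice and the wild-type cells (WT) from Prx1Cre; Kdm4bw/w mice, so both carried Cre under the limb mesenchyme promoter Prx1, and a cell in which Cre was not active would keep the gene. Each antibody was used on 1 KO and 1 WT library, with no replicate, so no difference between genotypes was tested and the intervals given cover counting error only. The labels give neither the age of the mice nor whether animals were pooled, peak lists cannot check the labelled cell type, and the H3 WT library alone came with a depth, 40420466 tags after duplicate filtering.

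Senescence is a lasting exit from the cell cycle. The Cdkn2a locus encodes p16Ink4a, which inhibits the kinases CDK4 and CDK6 and so keeps the retinoblastoma protein active, and, from an upstream start, p19Arf, which stabilises p53 by blocking MDM2. Its neighbour Cdkn2b encodes p15Ink4b, a second inhibitor of those kinases, and Trp53 encodes the transcription factor p53, which activates Cdkn1a, the gene of the kinase inhibitor p21. Lmnb1 encodes lamin B1, a nuclear lamina protein that declines in senescent cells. HMGA1 and HMGA2 are architectural proteins that bind AT-rich DNA and, in human fibroblasts, take part in the senescence-associated heterochromatin foci, which carry H3K9me3. KDM4B removes methyl groups from this residue.

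The promoters of these genes differ in sequence. Shown here are both starts of Cdkn2a, the Cdkn1a start with the fewest CpG and the most p53 half-sites, and the paralogues Hmga1 and Hmga2. RefSeq sequences of build GRCm38.p6, from 250 bases before to 50 after each start, were found for 6 of the 7 genes, with 9 starts in all; Lmnb1 had no entry. Capitals mark the GC box GGGCGG, or CCGCCC on the other strand, and p53 half-sites. These positions are of another build than the peaks and cannot be set against them, so whether a peak lay on a promoter was not examined.
Cdkn2a, upstream start of Arf, chr4:89294570-89294869, minus strand: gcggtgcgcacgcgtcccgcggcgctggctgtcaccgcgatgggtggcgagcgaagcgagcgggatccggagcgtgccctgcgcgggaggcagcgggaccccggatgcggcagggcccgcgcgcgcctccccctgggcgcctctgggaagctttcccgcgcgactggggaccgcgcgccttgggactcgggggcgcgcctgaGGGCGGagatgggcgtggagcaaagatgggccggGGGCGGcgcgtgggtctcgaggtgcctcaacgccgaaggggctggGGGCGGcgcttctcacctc
Cdkn2a, downstream start of p16Ink4a, chr4:89282143-89282442, minus strand: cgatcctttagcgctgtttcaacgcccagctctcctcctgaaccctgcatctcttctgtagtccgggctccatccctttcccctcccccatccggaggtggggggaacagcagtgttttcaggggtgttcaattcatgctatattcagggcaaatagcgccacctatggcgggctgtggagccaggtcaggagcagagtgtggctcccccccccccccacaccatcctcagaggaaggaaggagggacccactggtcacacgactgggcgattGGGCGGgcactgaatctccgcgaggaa
Cdkn1a, upstream start, chr17:29090729-29091028, plus strand: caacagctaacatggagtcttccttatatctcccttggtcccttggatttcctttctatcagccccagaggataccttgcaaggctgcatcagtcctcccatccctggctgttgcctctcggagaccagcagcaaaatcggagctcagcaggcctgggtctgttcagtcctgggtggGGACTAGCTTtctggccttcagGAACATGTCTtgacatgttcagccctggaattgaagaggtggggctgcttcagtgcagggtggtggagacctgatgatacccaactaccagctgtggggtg
Hmga1, upstream start, chr17:27556324-27556623, plus strand: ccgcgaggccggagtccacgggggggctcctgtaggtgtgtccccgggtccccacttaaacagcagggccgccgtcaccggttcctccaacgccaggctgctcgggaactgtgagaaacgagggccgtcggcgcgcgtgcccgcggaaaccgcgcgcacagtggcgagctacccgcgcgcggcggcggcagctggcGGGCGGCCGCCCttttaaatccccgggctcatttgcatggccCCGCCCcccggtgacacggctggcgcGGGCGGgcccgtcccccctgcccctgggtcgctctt
Hmga2, chr10:120476420-120476719, minus strand: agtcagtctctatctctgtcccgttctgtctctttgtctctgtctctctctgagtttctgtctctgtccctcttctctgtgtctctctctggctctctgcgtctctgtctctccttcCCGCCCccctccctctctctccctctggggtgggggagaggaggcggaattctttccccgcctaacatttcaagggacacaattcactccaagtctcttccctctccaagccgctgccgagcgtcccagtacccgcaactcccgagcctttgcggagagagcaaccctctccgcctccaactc

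The Arf start of Cdkn2a was the richest in CpG, the dinucleotide that DNA methylation acts on, with 45 in 300 bases, a number reached by 1.93% of the 32851 promoters in the table. Hmga1 had 40 and 38 at its 2 starts. The p16Ink4a start had 12, as had Hmga2, while Cdkn2b had 18, Trp53 had 10, and the 2 Cdkn1a starts had 2 and 23. The median of all promoters was 7, so 8 of the 9 starts lay above it. A GC box, to which factors of the Sp1 family bind, stood in 7 of the 9 starts, against 35.7% of all promoters. The sequences of the 2 Hmga1 starts mostly overlap and hold the same GC boxes, yet they count as 2 starts in both numbers. The upstream Cdkn1a start held 2 p53 half-sites and Trp53 held 1, and the other 7 starts held 0; no start held both motifs. At least 1 half-site occurred in 8.36% of all promoters and at least 2 in 0.359%. The Cdkn1a half-sites begin 73 and 51 bases before the start. These are matches of letters only.

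All 6 windows carried KDM4B in WT cells and H3K9me3 in KO cells, and neither mark was called there in the opposite genotype. KDM4B had 0 peaks in KO cells, against 37 in WT cells, and H3K9me3 had 22 peaks in KO cells, against 0 in WT cells. H3 had 0 peaks in KO and 0 in WT cells, but its whole lists held only 28 and 38 peaks. These 0 counts allow shares of up to 10.7% and 7.89% of the lists, so they say little about H3 in the windows. The 37 KDM4B peaks covered 28.9 kb, or 8.84% of the window sequence, and the 22 H3K9me3 peaks covered 9.71 kb, or 2.97%.

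**Figure D1:**
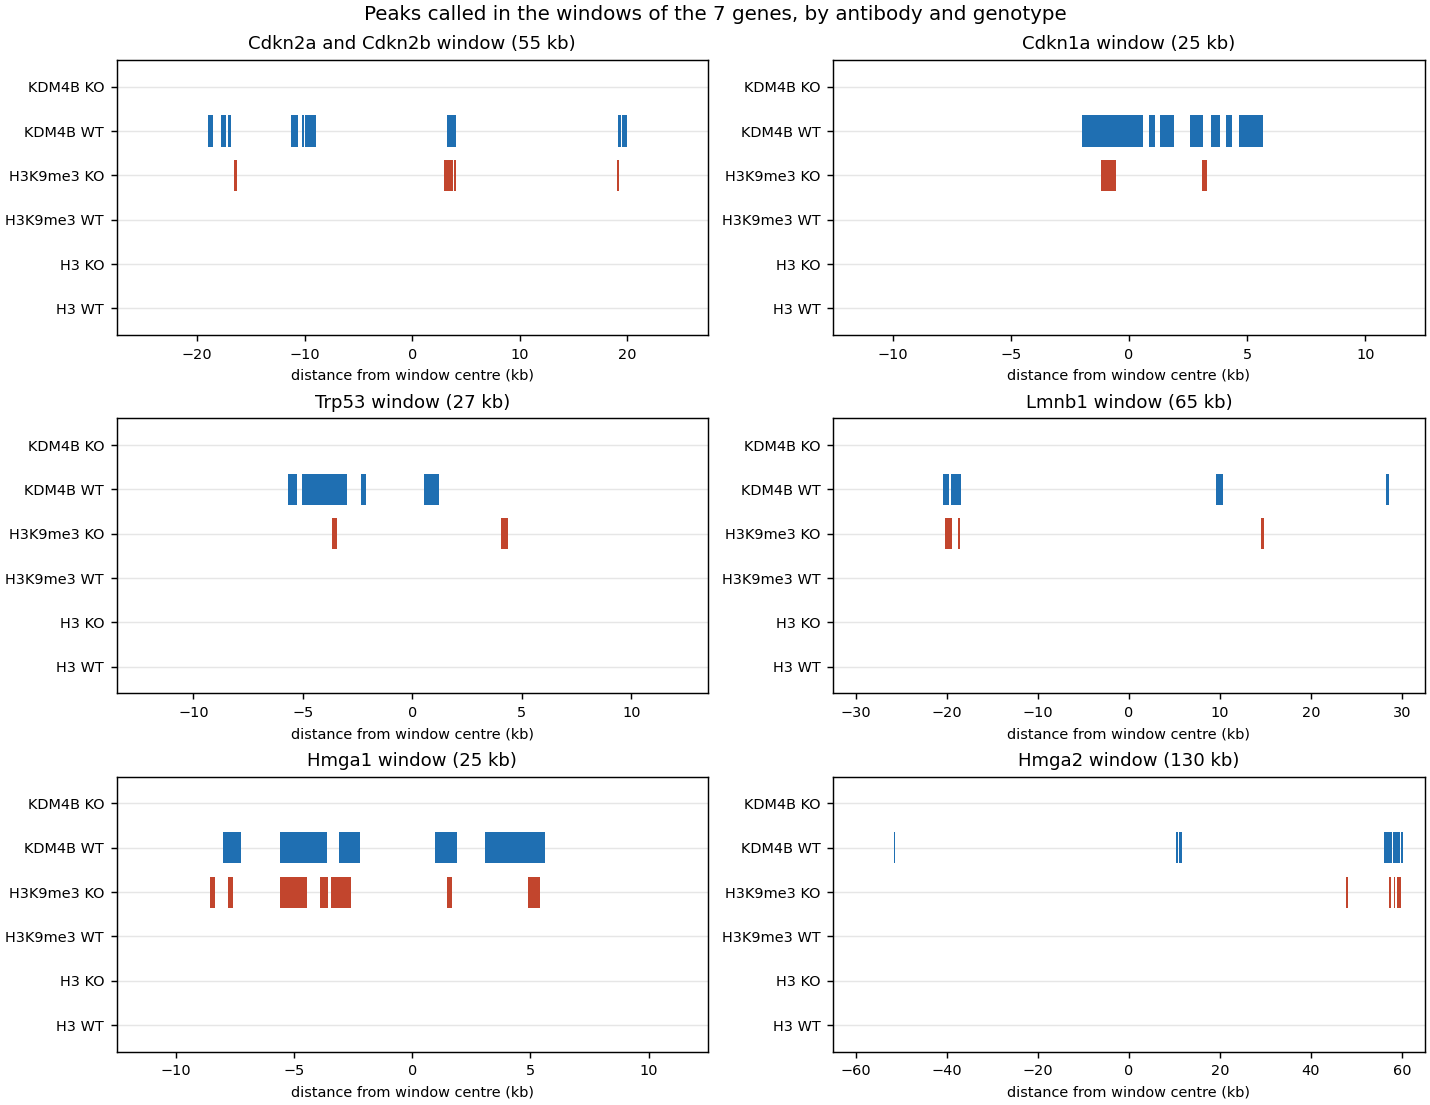
Peaks in the 6 windows, drawn to scale as boxes against the distance from the window centre in kb, with 1 row for each antibody and genotype. The KDM4B WT and H3K9me3 KO rows hold 37 and 22 peaks in all, and the other 4 rows are empty in every window.

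The lists without a peak in the windows were short. The KDM4B list had 35 peaks in KO cells and 32017 in WT cells, and the H3K9me3 list had 55306 in KO cells and 943 in WT cells. At the ratio of the whole H3K9me3 lists, 58.6, the 22 KO peaks would have stood beside 0.375 WT peaks, and at the ratio of the KDM4B lists, 915, the 37 WT peaks would have stood beside 0.0404 KO peaks. A count of 0 allows a share of up to 0.318% of the H3K9me3 WT list and 8.57% of the KDM4B KO list. With 1 library per group and the depth and threshold of these 4 lists unknown, genotype and library cannot be told apart. The nearest H3K9me3 WT peak lay 0.591 Mb from the Trp53 window, 0.756 Mb from Lmnb1, 1.06 Mb from Hmga2, 3.92 Mb from Cdkn1a, 4.03 Mb from Hmga1 and 18.9 Mb from the Cdkn2a and Cdkn2b window.

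That a window of such length carries a mark is not rare in the genome. Equal lengths laid end to end along the 19 autosomes, called tiles here, gave the background. At least 1 KDM4B peak in WT and none in KO cells was found in all 6 windows, against 14.4% of tiles of 25 kb (the length of the Cdkn1a and Hmga1 windows), 15.2% of 27 kb (Trp53), 23.5% of 55 kb (Cdkn2a and Cdkn2b), 26.0% of 65 kb (Lmnb1) and 36.7% of 130 kb (Hmga2). At least 1 H3K9me3 peak in KO and none in WT cells was likewise found in all 6 windows, against 22.3%, 23.3%, 33.3%, 35.8% and 46.5% of tiles of these lengths. Both KDM4B in WT and H3K9me3 in KO cells were found in 6 windows, against 8.60%, 9.26%, 16.8%, 19.1% and 30.4% of tiles. Tiles were taken without regard to genes and the windows were stated for genes, so they need not be alike in gene content. Among tiles that held KDM4B in WT cells, 59.6 to 82.7% also held H3K9me3 in KO cells, depending on length.

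The windows ranked higher among tiles by KDM4B than by H3K9me3, with Hmga1 as the exception. The 7 KDM4B peaks of Cdkn1a were reached by 0.629% of its tiles, the 9 of Cdkn2a and Cdkn2b by 1.33%, the 5 of Hmga1 by 1.45%, the 4 of Trp53 by 2.52%, the 5 of Lmnb1 by 5.27% and the 7 of Hmga2 by 7.68%. The H3K9me3 numbers in KO cells, 2, 4, 7, 2, 3 and 4 in the same order of genes, were reached by 11.7%, 10.8%, 1.45%, 12.5%, 16.4% and 21.5% of tiles. Among tiles that held KDM4B, as all windows did, they were reached by 35.5%, 27.4%, 5.17%, 36.7%, 38.4% and 44.2%. The KDM4B numbers were reached by 4.36 to 20.9% of such tiles. Over all windows there were 0.595 H3K9me3 KO peaks per KDM4B WT peak, against 1.73 in the whole lists.

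**Figure D2:**
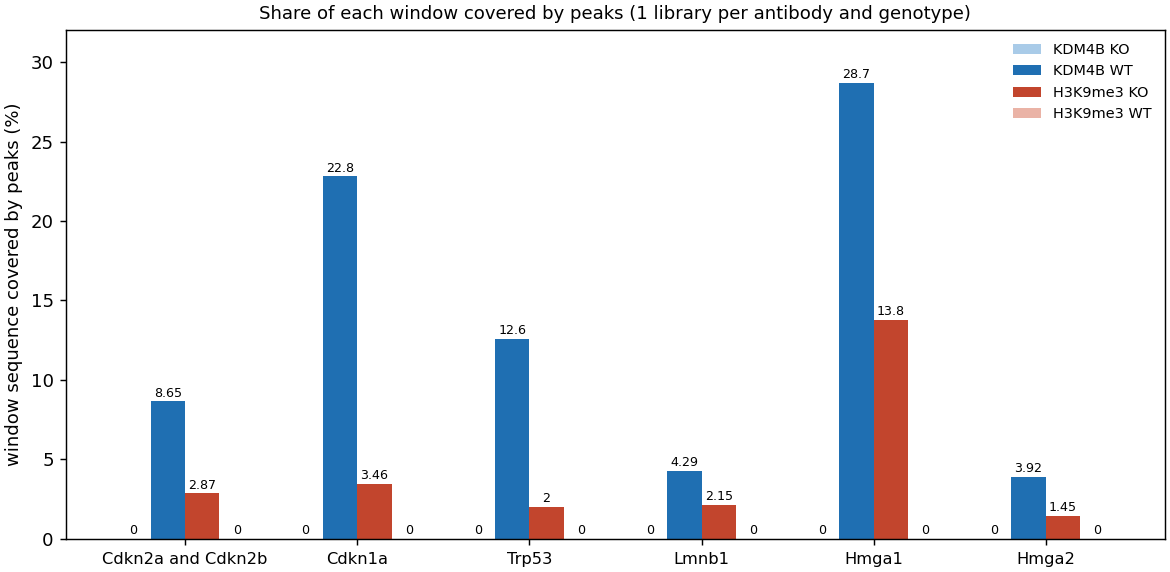
Share of each window, in percent, that peaks covered, for KDM4B and H3K9me3 in KO and WT cells (bars, 1 library each, no error). Hmga1 and Cdkn1a stand highest for KDM4B in WT cells with 28.7 and 22.8%, and Hmga1 stands highest for H3K9me3 in KO cells with 13.8%.

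In the window of the inhibitor genes Cdkn2a and Cdkn2b, KDM4B formed 4 separate groups in WT cells, and H3K9me3 in KO cells lay at or beside 3 of them. The 9 KDM4B peaks had widths of 238 to 975 bp and covered 8.65% of the window. The first group held 3 peaks from 88918464 to 88920597, the second 3 peaks from 88926223 to 88928532, the third a single peak from 88940712 to 88941609 and the last 2 peaks from 88956674 to 88957435. The third was the one most covered by H3K9me3 in KO cells: 2 KO peaks, from 88940428 to 88941279 and from 88941356 to 88941572, took up 785 bp or 87.4% of it. At the last group, a KO peak of 199 bp shared 61 bp with KDM4B. Near the first, a KO peak of 311 bp lay 285 bp away without overlap, and the second group had its nearest KO peak 5029 bp away. The first and second groups together held 6 of the 9 KDM4B peaks, so most KDM4B peaks in this window met no H3K9me3. The protein-coding neighbours in RefSeq are Mtap and Dmrta1.

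KDM4B at Cdkn1a was a single dense run, most of it outside H3K9me3 of KO cells, which covered 3.46% of the window. Its 7 peaks in WT cells followed each other from 29230515 to 29238148, a span of 7.63 kb of which 5702 bp were covered. The first, of 2581 bp, was the widest KDM4B peak in any of the 6 windows. A KO H3K9me3 peak of 667 bp, from 29231302 to 29231968, lay wholly inside it and took up 25.8% of it. The only other KO peak, of 199 bp, shared 45 bp with the fourth KDM4B peak, and the remaining 5 KDM4B peaks had gaps of 161 to 1388 bp to H3K9me3. Of the KDM4B sequence, 12.5% was under H3K9me3 in KO cells. Srsf3 and Rab44 are the protein-coding neighbours.

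The Trp53 window showed the smallest overlap. KDM4B had 4 peaks in WT cells, the widest from 69393451 to 69395504 with 2054 bp. H3K9me3 had 2 peaks in KO cells: 1 of 224 bp lay inside that KDM4B peak, and 1 of 317 bp lay 2804 bp beyond the last KDM4B peak. In all, 6.58% of the KDM4B sequence was under H3K9me3, the lowest share of the 6 windows. The gene Wrap53, which starts beside Trp53 on the opposite strand, and Atp1b2 are its protein-coding neighbours, so peaks here cannot be assigned to Trp53 alone.

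At Lmnb1 the marks met in 1 place near the lower end of the window and not elsewhere. In WT cells 2 KDM4B peaks of 731 and 1067 bp lay between 56867021 and 56868990. In KO cells 2 H3K9me3 peaks lay over them, 1 of 784 bp that bridged both and 1 of 223 bp inside the second. The other 3 KDM4B peaks, of 298 to 350 bp, lay 4107 to 6864 bp from any H3K9me3 peak of KO cells. The remaining H3K9me3 peak, of 393 bp, was 4107 bp from KDM4B.

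Hmga1 had the largest share of its window covered by each mark, and it was the window in which every KDM4B peak met H3K9me3. The 5 KDM4B peaks of WT cells, of 761 to 2514 bp, covered 28.7% of the window. The 7 H3K9me3 peaks of KO cells, of 207 to 1143 bp, covered 13.8%. The peak of 1143 bp, from 27691905 to 27693047, was the widest H3K9me3 peak of the 6 windows and the only one of 1 kb or more, and it lay inside a KDM4B peak of 2020 bp. Of the KO peaks, 6 of 7 overlapped KDM4B, and the exception lay 344 bp away. H3K9me3 took up 40.6% of the KDM4B sequence, and shares for single peaks ran from 20.4% to 71.3%. With 5 peaks, the interval of the share overlapping is 47.8 to 100% (95% exact binomial).

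Hmga2, the paralogue of Hmga1 and in mouse neural stem cells a repressor of the Cdkn2a locus, had its marks gathered near the higher end of a long window. Of 7 KDM4B peaks in WT cells, 4 lay between 119911159 and 119915169, a span of 4.01 kb, and all 4 overlapped H3K9me3 of KO cells. Of 4 H3K9me3 peaks in KO cells, 3 lay there, of 275 to 770 bp, and shared 483, 275 and 713 bp with KDM4B. The other 3 KDM4B peaks, of 273 to 587 bp, lay 36239 to 99254 bp from H3K9me3. The remaining H3K9me3 peak, of 233 bp, lay 8107 bp from KDM4B. H3K9me3 of KO cells covered 1.45% of the Hmga2 window in all.

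Over the 6 windows, H3K9me3 of KO cells lay mostly on KDM4B peaks of WT cells. Of the 22 H3K9me3 KO peaks, 17 overlapped a KDM4B WT peak by at least 1 bp, or 77.3% (95% exact binomial interval 54.6 to 92.2%), and 9 lay wholly inside one. The share was 15.7% in the whole list, and 36.2% for those of the list in 25 kb tiles that held KDM4B, a comparison chosen after seeing the data. Both values lie below the interval. That interval treats neighbouring peaks as independent although the 22 form 15 groups, so it cannot set the windows apart. Tiles with KDM4B held a median of 1 KDM4B peak at 25 and 27 kb, 2 at 55 and 65 kb and 3 at 130 kb. The windows of these lengths held 4 to 9. Whether the share differs from that of tiles with as much KDM4B was not tested. By window, 3 of 4 H3K9me3 KO peaks overlapped KDM4B at Cdkn2a and Cdkn2b, 2 of 2 at Cdkn1a, 1 of 2 at Trp53, 2 of 3 at Lmnb1, 6 of 7 at Hmga1 and 3 of 4 at Hmga2. Of the H3K9me3 sequence in the windows, 72.0% was also under KDM4B, against 14.7% in the whole list and 32.5% in the 25 kb tiles with KDM4B.

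Seen from KDM4B, the overlap was less complete. Of the 37 KDM4B WT peaks, 16 overlapped H3K9me3 of KO cells, or 43.2% (27.1 to 60.5%), against 22.8% of the whole list. Among KDM4B peaks in 25 kb tiles that held H3K9me3 of KO cells, 35.0% overlapped, which lies inside the interval, so the windows were not told apart from such tiles. The count was 2 of 9 at Cdkn2a and Cdkn2b, 2 of 7 at Cdkn1a, 1 of 4 at Trp53, 2 of 5 at Lmnb1, 5 of 5 at Hmga1 and 4 of 7 at Hmga2. The intervals of these counts overlap one another, from 2.81 to 60.0% at Cdkn2a and Cdkn2b to 47.8 to 100% at Hmga1. In WT cells 0 of the 37 overlapped H3K9me3, which allows a share of up to 8.11%, against 17 of 32017 in the whole list, or 0.0531%.

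**Figure D3:**
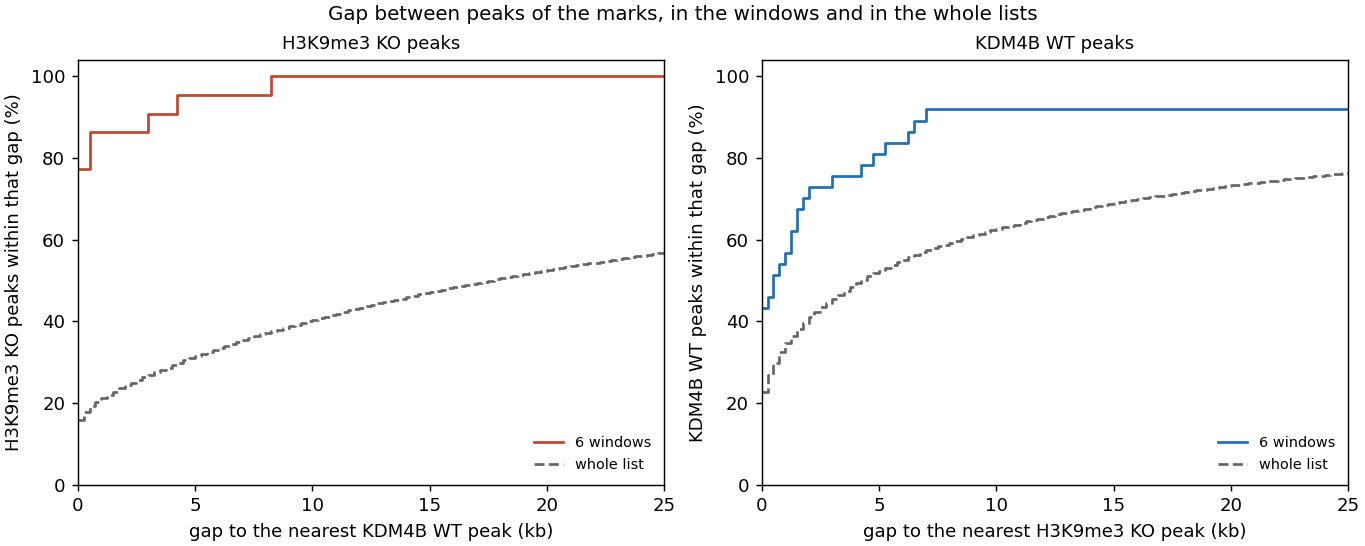
Percent of H3K9me3 KO peaks (left) within a given gap, in kb, of a KDM4B WT peak, and of KDM4B WT peaks (right) within a given gap of an H3K9me3 KO peak, for the 6 windows (solid) and the whole lists (dashed). All 22 H3K9me3 KO peaks of the windows lay within 10 kb of KDM4B, against 40.4% of the whole list. Every window held KDM4B, whereas 23955 of the 55306 peaks of the list lay in autosomal 25 kb tiles with KDM4B. The comparison therefore does not show a closeness particular to these genes.

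The median gap from a KDM4B peak to H3K9me3 of KO cells was 0.285 kb in the windows and 4.2 kb in the whole list. Every window held H3K9me3 of KO cells, whereas 20714 of the 32017 KDM4B peaks of the list lay in autosomal 25 kb tiles with it. KDM4B WT peaks of the windows had a median width of 568 bp, against 509 bp in the whole list, and 8 of 37 or 21.6% reached 1 kb, against 19.9%. H3K9me3 KO peaks of the windows had a median of 311.5 bp, against 256 bp in the whole list, and 1 of 22 or 4.55% reached 1 kb, against 0.533%.

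The surroundings differed between the genes, and not in the same way for both marks. The Cdkn2a and Cdkn2b window had 1.64 KDM4B WT peaks per 10 kb, against 0.05 in the 100 kb on each side, and 0.727 H3K9me3 KO peaks per 10 kb, against 0. Hmga2 had 0.538 and 0.308 per 10 kb, with 0.05 and 0 around it. The H3K9me3 of KO cells at these genes had no neighbouring peak within 100 kb on either side of the windows. Lmnb1 had 0.769 KDM4B WT peaks per 10 kb, against 0 around it, while its H3K9me3 density of 0.462 was close to the 0.4 around it. Hmga1 likewise had few KDM4B WT peaks around it, at 0.15 per 10 kb against 2.0 in the window, but its surroundings were rich in H3K9me3 of KO cells.

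Around Cdkn1a and Trp53, H3K9me3 of KO cells was denser outside the window than inside when both sides were averaged. The Cdkn1a window had 0.8 H3K9me3 peaks per 10 kb and its surroundings 1.15, with 17 of 23 flanking peaks on the higher side, where KDM4B had 0. The Trp53 window had 0.741 and its surroundings 1.70, with 18 peaks on the lower and 16 on the higher side. Averaged over both sides, KDM4B ran the other way, at 2.80 per 10 kb in the Cdkn1a window against 0.850 around it, and 1.48 in the Trp53 window against 0.8. The sides were unlike, however. KDM4B had 17 peaks on the lower and 0 on the higher side of Cdkn1a, and 1 and 15 at Trp53. The higher side of Trp53 was thus as dense in KDM4B as the window. Hmga1 had 2.80 H3K9me3 peaks per 10 kb in the window and 2.00 around it, where 31 of the 40 flanking peaks lay on the lower side, on which KDM4B had 0. These stretches beside Hmga1 and Cdkn1a carried H3K9me3 of KO cells without KDM4B.

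**Figure D4:**
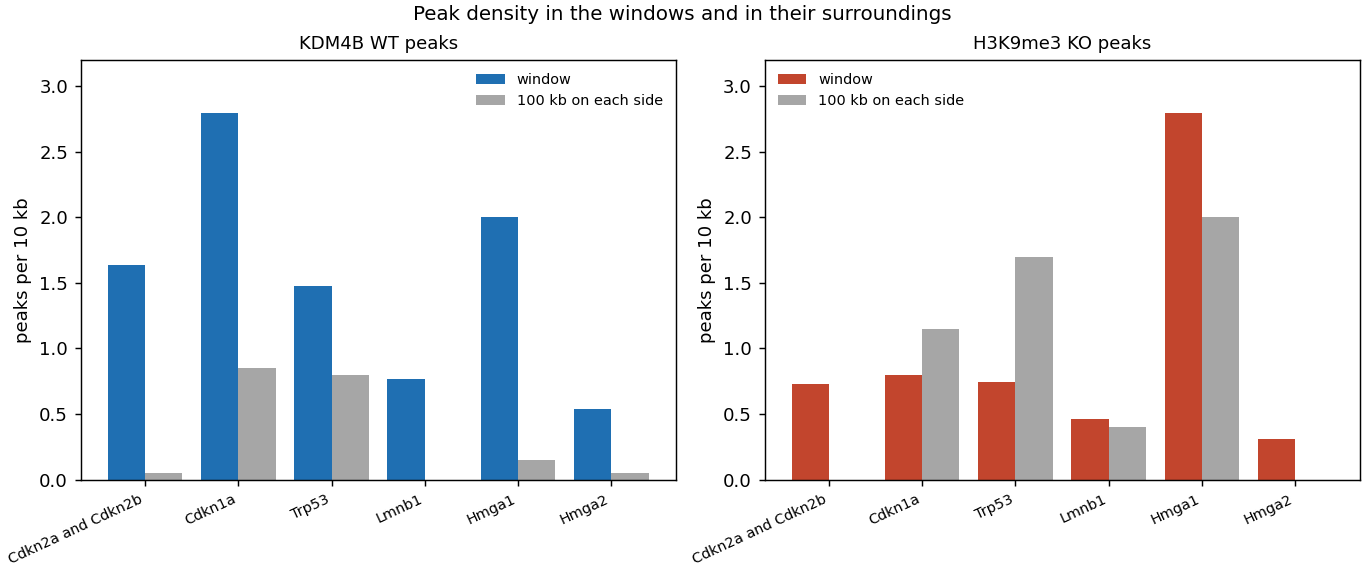
KDM4B WT (left) and H3K9me3 KO (right) peaks per 10 kb in each window (coloured) and in the 100 kb on each side of it (grey), 1 library each, no error. Averaged over both sides, KDM4B was denser inside every window, whereas H3K9me3 was denser outside for Cdkn1a and Trp53, at 1.15 and 1.70 peaks per 10 kb. Single sides can differ. The higher side of Trp53, with 15 KDM4B peaks, was as dense as the window. The lower side of Hmga1, with 31 H3K9me3 peaks, was denser than the window, and that of Cdkn1a, with 6, was less dense.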

How the data were processed

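Peak lists of 6 libraries were used; the 2 input samples were not analysed here. Bowtie, SAMtools and MACS (KDM4B) or MACS2 (H3K9me3 and H3) are listed with builds mm9 and hg19, per the submitters' processing notes. The 5 lists other than H3 WT hold only positions, so their depth and threshold are unknown, and a peak number can move with either. The H3 WT table comes from MACS2 2.1.4 with a q-value threshold of 0.05, per the file headers. Its deposited columns hold the pileup signal, the fold enrichment, the −log10 p-value and the −log10 q-value, and none of its peaks lay in a window. Yeast chromatin was spiked into the H3K9me3 samples, per the series' design text; how peak calling treated it is unknown.

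Members, windows and tests were chosen with earlier results of these data known. Peaks were assigned by midpoint, overlap meant at least 1 bp, and groups joined peaks within 1 kb. Intervals are 95% exact binomial; beside a count of 0 stands the share of 3 counts. Positions are 1-based. Lacking an mm9 annotation, gene starts and other genes of the pathway were not analysed here; RefSeq GRCm38.p6 gave neighbours by name. Counts used Python 3.11.15, numpy 2.4.6 and scipy 1.17.1. Overlaps were tested on simulated data and matched bedtools 2.31.1 in 30 of 30 comparisons. Alternatives were other window edges, merging, a width limit, −log10 q of at least 5 for H3 WT, other overlap rules and other tiles.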

Additional observations from a re-analysis of the deposited data

How the results depend on the processing

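No paired analysis was possible because each antibody and genotype has 1 library and the labels carry no replicate numbers, and for the same reason no library could be left out. Of 70 alternative values, 58 lay within 1.5 times the reported value and 12 did not. The 58 include the counts of 0, which stayed at 0 but could not have changed. The nearest peak of those lists lay 0.591 Mb or more from a window, beyond the reach of any alternative run, so these values say nothing on robustness. Widening the windows by 10 kb gave 40 KDM4B WT and 32 H3K9me3 KO peaks, so the second number depended more on the window edges. The overlap of the marks was not recounted in the widened windows. Merging peaks within 1 kb left 17 KDM4B WT peaks in the windows. Keeping only peaks of at least the median width of their list left 20 KDM4B WT and 13 H3K9me3 KO peaks, of which 9 and 10 overlapped the other mark; fewer peaks enter by construction. With the X chromosome included, the share of tiles holding a KDM4B WT peak was 13.8, 14.5, 22.5, 24.9 and 35.3% at 25, 27, 55, 65 and 130 kb, and that of tiles holding an H3K9me3 KO peak was 21.2, 22.2, 32, 34.4 and 45.3%. In tiles that held KDM4B, H3K9me3 of KO cells was found in 59.6, 61.1, 71.3, 73.5 and 82.7%. Restricting the lists to 25 kb tiles with the other mark, a choice made after seeing the data, raised the overlapping share of the KDM4B WT list to 35.0% and of the H3K9me3 KO list to 36.2%. Depth, control and threshold of 5 lists are unknown, so the genotype contrast in peak number cannot be told apart from a difference between libraries, and with 37 and 22 peaks the shares are known only within wide intervals.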
